A study of Mus musculus with 8 samples.

Results

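The BCL2 family decides whether a cell releases the contents of its mitochondria and dies. Its transcripts were examined in mouse hematopoietic stem cells exposed to eltrombopag, an oral drug that raises platelet counts and binds iron. Of the 10 genes chosen for this purpose, 3 keep cells alive (Bcl2, Bcl2l1 and Mcl1), 2 open the outer mitochondrial membrane (Bax and Bak1), and 5 are death sensors of the BH3-only class (Bcl2l11, Bbc3, Pmaip1, Bid and Bad). The platform annotation paired a single probe set with each of 9 members, and these 9 are described here, out of 19505 named genes. Bax was not analysed here.

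The stem cells came from bone marrow of mice aged 6 to 10 weeks and were sorted as lineage-negative, c-Kit-positive, Sca-1-positive, CD150-positive and CD48-negative cells. In the eltrombopag group, 4 samples were kept for 16 h with the drug at 10 µg/ml. In the vehicle group, 4 samples were kept for the same time with sterile water, and both groups were cultured in medium with stem cell factor at 100 ng/ml. Strain, sex and genotype of the mice are not given in the sources used here. Each sample was hybridised to 1 array, numbered 1 to 4 within its group, and the titles name these as biological replicates but not the animals behind each number. The p-values therefore reflect only how far these samples lie apart. The deposited values are log2 expression values made with RMA, which sets all arrays to a common distribution. As these are bulk samples, fewer cells carrying a transcript and less transcript per cell cannot be told apart.

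The survival proteins bind and hold back both the pore formers and the BH3-only proteins. BH3-only genes respond to different stresses: loss of growth factors, DNA damage or signals from death receptors. Blood stem cells are known to depend on Mcl1, and Bcl2 is widely used as a transgene that prolongs their survival in culture. Many family members are also set by protein turnover, phosphorylation or cleavage, none of which a transcript array measures.

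Markers of the sorted cells and of other cell types were read first. Any pair of arrays correlated across genes, which are not independent replicates, at a Pearson r of 0.987 to 0.993. Of 12 measured stem cell genes, 11 had values above the arrays' mean median of 6.78, among them Kit at 12.88 with eltrombopag and 12.89 with vehicle, and the transcription factor gene Hlf at 11.43 with eltrombopag and 11.54 with vehicle. Slamf1, which encodes CD150, had 7.07 with eltrombopag and 7.01 with vehicle, and Cd48, whose protein the sort excluded, had 6.21 with eltrombopag and 5.96 with vehicle. Mast cell and basophil genes lay below the mean lower quartile of 5.05 in 7 of 8 cases. For B cell genes, 5 of 6 lay below the median. In the T and NK cell list, Nkg7, a gene of cytotoxic granules, was the exception at 8.49 with eltrombopag and 8.61 with vehicle, while 6 of 7 genes lay below the median. Values above the median were found for 4 of 10 neutrophil and monocyte genes, 2 of 6 erythroid, 3 of 6 megakaryocyte and 4 of 8 stromal and endothelial genes, and limma called none of these marker genes between the groups (0 in each list). The first principal component (25.5% of the variance) set the arrays numbered 1 and 2 of both groups apart from those numbered 3 and 4. In the stem cell list, limma's F test across the replicate numbers called 1 gene, against 0.210% of all genes. Ifitm1 of that list lay between 11.85 and 12.05 in the arrays numbered 1 and 2 of both groups. It lay between 10.49 and 10.68 in those numbered 3 and 4.

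No BCL2 family transcript was called between cells with the drug and cells with water. With limma, 0 of the 9 members passed at an adjusted p under 0.05, and 0% of all genes. At an unadjusted p under 0.05 it found 0 of 9 members, against 3.33% of all genes. Eltrombopag and vehicle values overlapped in all 9 members, against a background of 2.12% of genes whose values did not overlap. All 9 had an adjusted p of 0.99978 in limma. The smallest unadjusted p among them in limma was 0.317, for Bcl2l1, and 5293 genes had a smaller one. The log2 difference was above 0 in 3 members and below 0 in 6 (2 and 7 once the arrays were set to equal medians, as Mcl1 changed sign), with a median of -0.055, while 52.3% of all genes lay above 0 and their median was 0.0071. With the replicate number as a block, limma had 0 of 9 members at an unadjusted p under 0.05, against 4.63% of all genes, and called 0. The median absolute log2 difference was 0.089 over the members and 0.083 over all genes.

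**Figure D1:**
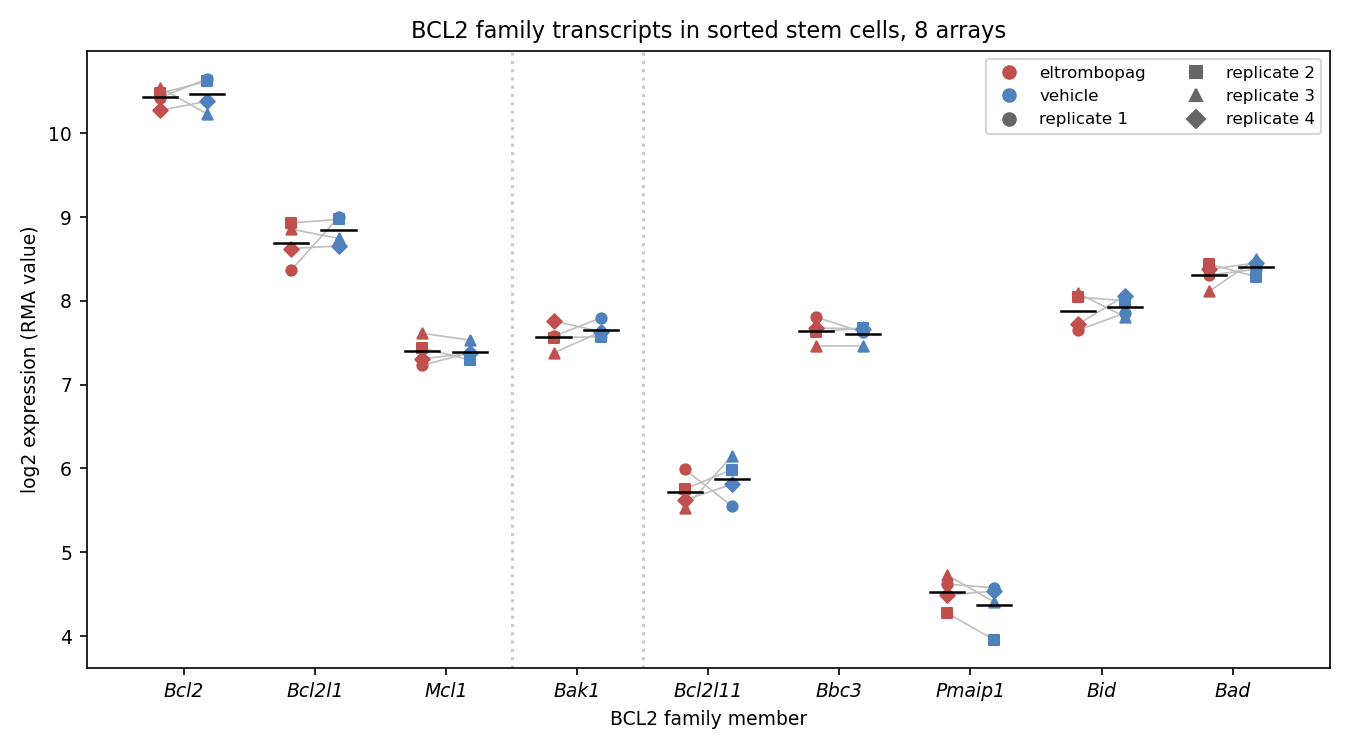
Log2 expression (RMA value, vertical axis) of the 9 members in 4 eltrombopag arrays (red, left) and 4 vehicle arrays (blue, right), with marker shapes for the replicate number, grey lines joining arrays of the same number and black bars for group means. Levels of different genes come from different probes and are not comparable, and red and blue points overlap in every member.

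Among the survival genes, Bcl2 encodes the founding member of the family, a guard of the outer mitochondrial membrane. Its log2 values were 10.42, 10.48, 10.54 and 10.27 in eltrombopag arrays 1 to 4, against 10.65, 10.62, 10.23 and 10.38 in vehicle arrays 1 to 4. The highest values came from vehicle arrays 1 and 2 and the lowest from vehicle array 3, so the eltrombopag values lay inside the vehicle range. Group means were 10.43 ± 0.11 with eltrombopag and 10.47 ± 0.20 with vehicle (SD, n = 4 each), a log2 difference of -0.042 (SE 0.12, 95% interval -0.30 to 0.22). The difference was -0.22, -0.14 and -0.11 in numbers 1, 2 and 4, but 0.31 in number 3.

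Bcl2l1 encodes BCL-XL, the survival protein on which platelets and maturing red cells rely. It had log2 values of 8.37, 8.93, 8.86 and 8.62 with eltrombopag, against 8.996, 8.97, 8.74 and 8.65 with vehicle. Eltrombopag array 1 was the lowest of the 8, and vehicle array 1 the highest. The means were 8.69 ± 0.25 with eltrombopag and 8.84 ± 0.17 with vehicle (SD, n = 4 each), a log2 difference of -0.15 (SE 0.14, interval -0.46 to 0.16). Number 1 alone had a difference of -0.63, against -0.044, 0.11 and -0.031 in numbers 2, 3 and 4. Without eltrombopag array 1 the log2 difference was -0.039.

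Mcl1 encodes a short-lived survival protein whose transcript follows cytokine signals. It had 7.23, 7.43, 7.61 and 7.31 with eltrombopag, against 7.38, 7.30, 7.53 and 7.37 with vehicle. Array 3 was the highest of its group under both conditions. The means were 7.40 ± 0.17 with eltrombopag and 7.40 ± 0.099 with vehicle (SD, n = 4 each), and the log2 difference was 0.0015 (SE 0.11, interval -0.24 to 0.24). Its sign changed under another scaling of the arrays, so no direction is given.

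Of the membrane openers only Bak1 was described. BAK1 sits in the outer mitochondrial membrane, where MCL1 and BCL-XL hold it in check. Its log2 values were 7.57, 7.56, 7.38 and 7.76 with eltrombopag, against 7.80, 7.57, 7.63 and 7.63 with vehicle. Eltrombopag array 3 was the lowest, and eltrombopag array 4 was second to vehicle array 1. The log2 difference was -0.089 (SE 0.11, interval -0.32 to 0.15), from means of 7.57 ± 0.16 with eltrombopag and 7.66 ± 0.097 with vehicle (SD, n = 4 each). It was -0.026 without eltrombopag array 3, -0.043 without vehicle array 1 and -0.15 without eltrombopag array 4.

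The BH3-only genes were spread around 0 as well. Bcl2l11 encodes BIM, a sensor of lost cytokine support that FOXO3 is known to induce. It had 5.99, 5.75, 5.52 and 5.62 with eltrombopag, against 5.55, 5.98, 6.15 and 5.81 with vehicle. Array 1 was the highest and array 3 the lowest with eltrombopag, while array 1 was the lowest and array 3 the highest with vehicle, and the groups overlapped. The differences by number were therefore 0.44, -0.23, -0.62 and -0.19 for numbers 1 to 4. The group means were 5.72 ± 0.20 with eltrombopag and 5.87 ± 0.25 with vehicle (SD, n = 4 each), and the log2 difference was -0.15 (SE 0.15, interval -0.48 to 0.17). With arrays 3 and 4 alone it was -0.41, with an unadjusted p of 0.0463 and an adjusted p of 0.997 in limma, and 4.37% of all genes had an unadjusted p under 0.05 there. With arrays 1 and 2 alone it was 0.10.

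Bbc3 (PUMA) and Pmaip1 (NOXA) are classical p53 targets that answer DNA damage. Bbc3 had 7.81, 7.63, 7.46 and 7.68 with eltrombopag, against 7.62, 7.68, 7.46 and 7.67 with vehicle. Array 3 was the lowest of its group under both conditions, and the difference in number 3 was 0.00016. The log2 difference over all arrays was 0.035 (SE 0.10, interval -0.20 to 0.27), from means of 7.64 ± 0.14 with eltrombopag and 7.61 ± 0.0997 with vehicle (SD, n = 4 each).

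Pmaip1, whose protein neutralises MCL1, was the only member with a mean below the lower quartile of the arrays, so its signal was dim. It had 4.62, 4.28, 4.73 and 4.49 with eltrombopag, against 4.58, 3.96, 4.41 and 4.54 with vehicle. Array 2 was the lowest of its group under both conditions. The means were 4.53 ± 0.19 with eltrombopag and 4.37 ± 0.28 with vehicle (SD, n = 4 each), and the log2 difference was 0.16 (SE 0.15, interval -0.18 to 0.50), the largest positive one among the members. It was 0.044, 0.32, 0.32 and -0.044 in numbers 1 to 4. Leaving out vehicle array 2 gave 0.023. With the replicate number as a block the SE was 0.10 and the unadjusted p 0.166 in limma (adjusted p 0.986).

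Bid links death receptors to mitochondria once caspase 8 has cut it. It had 7.65, 8.05, 8.09 and 7.72 with eltrombopag, against 7.85, 8.0, 7.81 and 8.06 with vehicle. All 4 vehicle values lay inside the eltrombopag range. The log2 difference was -0.055 (SE 0.13, interval -0.33 to 0.22), from means of 7.88 ± 0.22 with eltrombopag and 7.93 ± 0.12 with vehicle (SD, n = 4 each).

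Bad is held inactive by growth factor kinases that phosphorylate it. It had 8.31, 8.44, 8.11 and 8.37 with eltrombopag, against 8.38, 8.29, 8.497 and 8.45 with vehicle. Eltrombopag array 3 was the lowest and vehicle array 3 the highest, a difference of -0.39 in that number. Over all arrays the log2 difference was -0.094 (SE 0.10, interval -0.32 to 0.13), from means of 8.31 ± 0.14 with eltrombopag and 8.40 ± 0.092 with vehicle (SD, n = 4 each). Without eltrombopag array 3 it was -0.028.

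**Figure D2:**
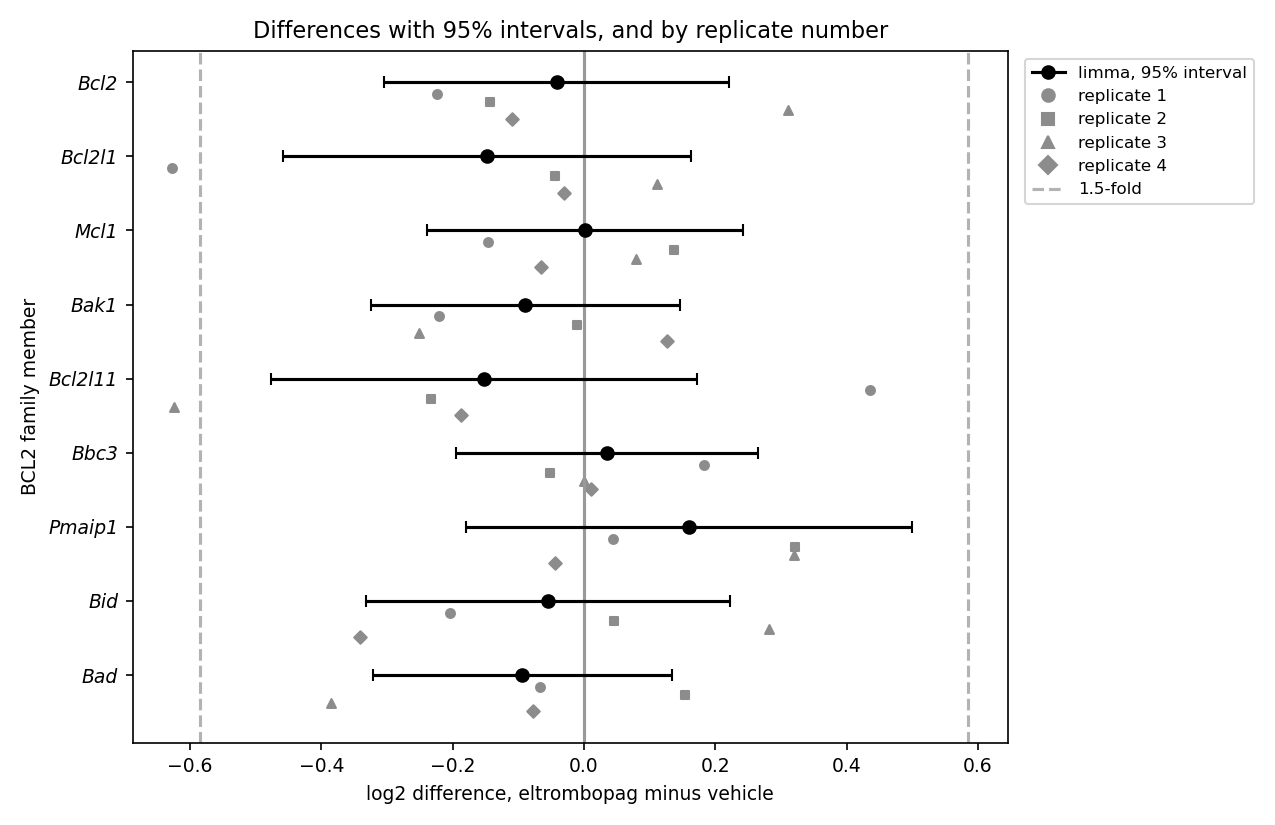
Log2 difference, eltrombopag minus vehicle (horizontal axis), for each member: black points and bars are the limma estimate with its 95% interval, grey symbols the differences within each replicate number, and dashed lines a 1.5-fold change. Every interval spans 0 and stays inside the dashed lines, while single differences run from -0.63 for Bcl2l1 in number 1 to 0.44 for Bcl2l11 in number 1.

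The intervals bound how large a change these arrays leave room for. A 1.5-fold change in either direction lay outside the 95% interval in 9 of 9 members, against 88.0% of all genes. A 2-fold change lay outside in 9 of 9 members too, against 98.7% of all genes. On the linear scale the lowest lower bounds were 0.718 times the vehicle level for Bcl2l11 and 0.728 times for Bcl2l1, and the highest upper bound was 1.41 times for Pmaip1. The half-widths ran from 0.23 log2 units for Bad to 0.34 for Pmaip1, where the median over all genes was 0.28. These intervals come from the fit without the replicate number and are not adjusted over genes. With the number as a block, the SE was larger for Bcl2l11 (0.165 against 0.147) and Bad (0.111 against 0.103). It was smaller for the other members, and intervals with the block are not given. For a dim probe set such as that of Pmaip1 it is not known how closely the array value follows the transcript. No member was higher with eltrombopag in all 4 numbers, against 6.73% of all genes, and none was lower in all 4, against 5.87%.

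The balance between a survival gene and a death gene was examined within each array, since differences in the amount of signal between arrays cancel in such a ratio. Of 8 pairs, 6 could be computed, and the other two involved Bax. The log2 ratio of Mcl1 to Pmaip1, a protein pair that bind each other, was 2.87 ± 0.22 with eltrombopag and 3.03 ± 0.25 with vehicle (SD, n = 4 each). Its change of -0.16 had the same direction in 4 of 4 numbers, from -0.24 to -0.021. As Mcl1 differed by 0.0015 and the dim Pmaip1 by 0.16, the mean change was nearly that of Pmaip1 with its sign turned. Pmaip1 alone was not in the same direction in every number (-0.044 in number 4). Of single genes, 5.87% were lower in all 4 numbers and 6.73% higher, and the share among ratios was not computed. The change did not pass an exact permutation test (two-sided p 0.457, adjusted p 0.891 over the 6 pairs). It was -0.054 without vehicle array 2 and -0.26 without eltrombopag array 2. The ratio of Bcl2 to Bcl2l11 changed by 0.11, with differences by number as far apart as -0.66 and 0.93 (exact permutation p 0.686). For Mcl1 to Bak1 the change was 0.091 (exact permutation p 0.686), for Bcl2 to Bbc3 it was -0.077 (0.571), for Bcl2l1 to Bad -0.053 (0.743) and for Bcl2 to Bid 0.013 (0.914). No adjusted exact permutation p was under 0.891, and the smallest unadjusted p that 4 against 4 arrays allow is 0.0286. After adjustment over the 6 pairs, a single pair at that floor could not come under 0.05. A change in 1 pair alone could therefore not have passed. The level of such a ratio depends on the probes and was not read.

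The spread of members was also read over all 8 arrays, with both groups together. Over the 8 arrays the SD was largest for Pmaip1 (0.24), Bcl2l11 (0.23) and Bcl2l1 (0.21), and smallest for Bbc3 (0.12), against a median of 0.18 over all genes. Differences between the 4 replicate numbers were tested with limma's F test, which treats the 2 arrays of a number as independent. It called 0 of 9 members, against 0.210% of all genes. Pmaip1 was the 1 member with an unadjusted p under 0.05 (0.0415, adjusted p 0.467 in limma), where 10.2% of all genes were under 0.05. Its mean was 4.12 in number 2, against 4.60, 4.57 and 4.51 in numbers 1, 3 and 4. Bcl2 had means of 10.54 and 10.55 in numbers 1 and 2, against 10.38 and 10.33 in numbers 3 and 4. It did not pass limma's F test (adjusted p 0.784). The split was seen in vehicle arrays 1 to 4 (10.65, 10.62, 10.23 and 10.38). With eltrombopag it was not (10.42, 10.48, 10.54 and 10.27), as array 3 was the highest there. Bcl2 thus followed the order of the first principal component in the vehicle group only.

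Members were also compared with each other over the 8 arrays, as a description. Of 36 member pairs, 12 had a correlation above 0, and the median Pearson r was -0.16. The pair farthest from 0, picked for that reason, was Mcl1 and Bbc3, with Pearson r -0.957 and Spearman's rho -0.952. Of 19504 other genes, Bbc3 had the lowest correlation with Mcl1. Within the groups r was -0.978 within the 4 eltrombopag arrays and -0.963 within the 4 vehicle arrays. It was -0.905 in the arrays numbered 1 and 2 and -0.960 in those numbered 3 and 4. These subsets belong to the 8 arrays the pair was picked from and are no separate check. Both genes varied little, over 0.38 log2 units for Mcl1 and 0.35 for Bbc3. Both arrays numbered 3, high in Mcl1 and low in Bbc3, lie farthest out, and without them r was -0.878 over 6 arrays. The 8 arrays share their normalization and, within a number, possibly their animals, so they are not fully independent points. Bcl2l1 and Bid (r 0.633), Bak1 and Bad (0.618) and Bcl2 and Bcl2l1 (0.617) were the most alike pairs.

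**Figure D3:**
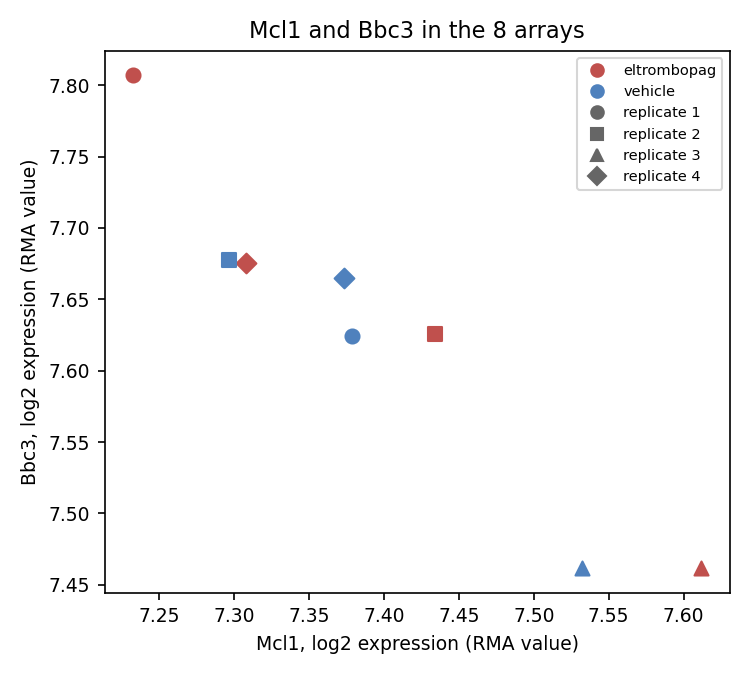
Bbc3 (vertical axis) against Mcl1 (horizontal axis), both as log2 expression (RMA value), in 4 eltrombopag arrays (red) and 4 vehicle arrays (blue), with marker shapes for the replicate number. Arrays with more Mcl1 had less Bbc3 in both groups (r -0.957 over 8 arrays), and the 2 triangles of number 3 lie at the lower right. The pair was picked from 36 for lying farthest from 0.

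For the 3 members with the largest spread, the genes most like them over the 8 arrays were sought among 9752 genes (9751 for Bcl2l1) with values above the median. Pmaip1 was most like Nkx2-3, a homeobox gene (r 0.973, and 0.825 without both arrays numbered 2), and Col28a1, a collagen gene (r 0.964, and 0.814 without them). Over the 8 arrays Nkx2-3 ran only from 7.57 to 7.70 and Col28a1 from 7.78 to 8.21, where Pmaip1 ran from 3.96 to 4.73. Bcl2l11 was most like Cpsf7, a factor of mRNA 3' end processing (r 0.979), and Plcg1, a phospholipase of receptor signalling (r 0.967). Bcl2l1 was most like Ccdc174 (r 0.941) and the homeobox gene Hoxa10 (r 0.922). With so many genes and so few arrays, values of this size are picked from the extreme of a wide range.

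The rest of the family did not pass either. Of 16 other BCL2 family genes, 10 were higher and 6 lower with eltrombopag, with a median log2 difference of 0.045, and limma called 0 of them. Bmf, a BH3-only gene whose protein is tied to the cytoskeleton until cells detach or are stressed, had the smallest p of this list. It had 8.22, 8.34, 8.44 and 8.31 with eltrombopag, against 8.52, 8.56, 8.61 and 8.45 with vehicle. The highest eltrombopag value lay just under the lowest vehicle value, and groups without overlap, in either direction, made up 2.12% of all genes. Bmf was thereby also lower in all 4 numbers, as were 5.87% of all genes. Its log2 difference was -0.21 (SE 0.091, interval -0.41 to -0.0054), with an unadjusted p of 0.0452 and an adjusted p of 0.99978 in limma. Bcl2a1c, a dim member of the A1 genes, was second with -0.21 (interval -0.51 to 0.10). Its near-identical copies Bcl2a1a (0.18), Bcl2a1b (0.11) and Bcl2a1d (0.25) lay on the other side of 0, and probes may not tell these copies apart.

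Downstream of the mitochondria, 13 genes of caspases and the apoptosome were measured, of which 4 were higher, 9 lower and 0 called (median -0.011). Casp9, the caspase that the apoptosome activates, had the smallest p, with 6.37 ± 0.39 with eltrombopag and 6.65 ± 0.26 with vehicle (SD, n = 4 each), a log2 difference of -0.28 (SE 0.20). Apaf1, the scaffold of the apoptosome, differed by -0.19 (SE 0.15). Of 12 genes of IAP proteins, which block caspases, and of their inhibitors, 8 were higher and 4 lower, with a median of 0.075, and 0 were called. Among them Naip5, better known as a sensor of flagellin, differed by 0.33 (SE 0.20) and Birc5, survivin, a gene of dividing cells, by 0.29 (SE 0.20). Birc5 stood at 9.61 in eltrombopag array 1, while the remaining eltrombopag arrays lay at 8.73 to 8.84 and the vehicle arrays at 8.36 to 8.92.

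Upstream, 7 of 15 death receptor and adaptor genes were higher and 8 lower (median -0.011), with 0 called. Cradd, an adaptor that recruits caspase 2, had an unadjusted p of 0.0455 in limma and a log2 difference of 0.26 (SE 0.11), and its groups overlapped. Fasl, the ligand of the death receptor FAS, differed by -0.19 (SE 0.11). Of 27 regulators of family members, 7 were higher and 20 lower (median -0.029), with 0 called. The smallest p-values there belonged to Mapk9, a stress kinase (-0.23, SE 0.15), and Pim2, a survival kinase that phosphorylates BAD (-0.28, SE 0.20). Foxo3, the activator of Bcl2l11, differed by -0.13 (9.23 with eltrombopag, 9.36 with vehicle). Across the replicate numbers, however, limma's F test called 2 of the 27: Pim1, another BAD kinase (adjusted p 0.0416), and Ddit3, the stress factor CHOP (adjusted p 0.0489), against 0.210% of all genes. Pim1 had 9.59 and 9.83 in eltrombopag arrays 1 and 2 and 8.74 and 8.57 in eltrombopag arrays 3 and 4, against 9.79 and 9.70 in vehicle arrays 1 and 2 and 8.67 and 8.61 in vehicle arrays 3 and 4. Ddit3 was likewise between 10.01 and 10.23 in the 4 arrays numbered 1 and 2 and between 9.09 and 9.21 in the 4 numbered 3 and 4.

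The p53 list, which also contains Bbc3 and Pmaip1, had 17 of 28 genes higher and 11 lower with eltrombopag (median 0.026), with 0 called. Btg2, an antiproliferative gene, had the smallest p: 5.78, 5.97, 6.21 and 5.91 with eltrombopag, against 6.40, 6.53, 6.67 and 6.59 with vehicle. Its groups did not overlap, the only such gene of this list, against 2.12% of all genes in either direction. Btg2 was thereby lower in all 4 numbers too, as were 5.87% of all genes. Its log2 difference was -0.58 (SE 0.11, interval -0.83 to -0.33), with an unadjusted p of 0.000391 and an adjusted p of 0.99978 in limma. Eda2r, a receptor of the TNF family, was 0.55 higher (SE 0.23, interval 0.031 to 1.07). Its unadjusted p in limma was 0.0399 (adjusted p 0.99978), where 3.33% of all genes were under 0.05. It had 6.25, 5.64, 5.85 and 4.93 in eltrombopag arrays 1 to 4 and 4.97 to 5.37 with vehicle, so its groups overlapped. Cdkn1a, the cell cycle inhibitor p21 and a standard p53 readout, had 11.18 with eltrombopag and 11.07 with vehicle. It lay between 11.34 and 11.58 in the arrays numbered 1 and 2 of both groups. In those numbered 3 and 4 it lay between 10.61 and 10.89, but limma's F test across numbers did not call it (adjusted p 0.148).

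**Figure D4:**
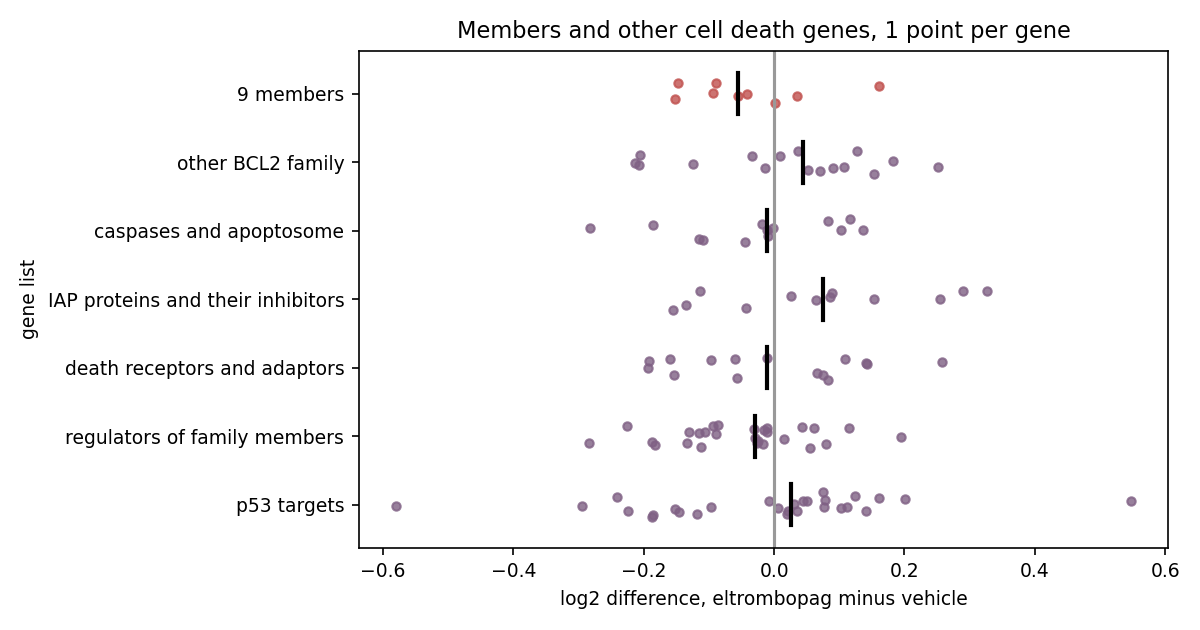
Log2 difference, eltrombopag minus vehicle (horizontal axis), with 1 point per gene for the 9 members and 6 lists of related genes, and black bars for the medians. List medians lie between -0.055 and 0.075, and Btg2 and Eda2r on the p53 list lie farthest from 0.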

How the data were processed

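RNA of sorted stem cells (about 10 ng) was amplified with a 3' kit and hybridised to Affymetrix arrays, per the labels' protocols. The authors deposited a log2 value for each probe set on each array. RMA, oligo and limma are named without versions, per the submitters' processing notes. Probe set coordinates were not used, and their genome build is not stated in the labels.

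Of 22206 probe sets, 19572 had 1 symbol, 0 several and 2634 none. They gave 19505 genes, with the highest-mean probe set standing for 55 genes that had several. Each of the 9 members had 1. Dim genes were kept. Comparing arrays pairwise, at most 0 probe sets were equal (tolerance 0). Precision is limited by the number of arrays.

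Groups were compared with limma 3.58.1 under R 4.3.3 (lmFit, eBayes, two-sided, group as the only term), Benjamini-Hochberg adjusted over all genes and called under 0.05. It was tested on simulated data. Ratios within arrays used an exact permutation test. Alternatives were a replicate block, a filter on dim genes, other scalings, array weights, other eBayes settings, subsets of arrays and leaving out each array.

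Deviations from group means correlated at 0.241, 0.294, 0.192 and 0.142 between arrays of the same number, all over 0.1, and the numbers were read as pairs on that ground, not from the labels. Arrays 3 and 4 were not told apart by this: eltrombopag array 3 with vehicle array 4 gave 0.171, and eltrombopag array 4 with vehicle array 3 gave 0.168.

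Members, lists and the split into numbers 1 and 2 and numbers 3 and 4 were chosen with earlier results of these data known. Named genes were the members, the 2 of each list with the smallest p, and the 2 genes most like each of the 3 most variable members. Foxo3, Ifitm1, Pim1, Ddit3, Cdkn1a, the Bcl2a1 copies and the pair Mcl1 and Bbc3 were named after their values were seen.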

Additional observations from a re-analysis of the deposited data

How the results depend on the processing

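The count of members called between eltrombopag and vehicle was 0 in the main comparison and in all 17 alternatives, and so was the count over all genes. At an unadjusted p under 0.05, arrays 3 and 4 alone gave 1 member (Bcl2l11; 4.37% of all genes), and the other 16 gave 0. With the replicate block 0 of 9 members passed, 0 had an unadjusted p under 0.05 (4.63% of all genes did), and no call changed. For the within-array ratios, the replicate block was an exact sign-flip permutation test, whose smallest possible p is 0.125, so no pair could pass. Mcl1 to Pmaip1 had this p of 0.125 before adjustment, and the adjusted p was 0.75 for each pair. Bcl2l11 and Pmaip1 fell outside the filter on dim genes. Across replicate numbers 0 members were called in all 4 alternatives, while eBayes with trend and robust settings called 198 genes in place of 41.

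Member differences changed sign in 18 cases, and the cause was not tested. With arrays 3 and 4 alone, Bcl2 was at 0.10 and Bcl2l1 at 0.040. With arrays 1 and 2 alone, Bcl2l11 was at 0.10, Bad at 0.044 and Mcl1 at -0.0042. Mcl1 was also at -0.0039 with equal medians and at -0.0030 with array weights. Leaving out 1 array in turn moved Bcl2 between -0.12 and 0.018, Mcl1 between -0.070 and 0.056, Bbc3 between -0.020 and 0.095 and Bid between -0.13 and 0.021. Without changing their sign, it moved Bcl2l1 between -0.23 and -0.039, Bak1 between -0.15 and -0.026, Bcl2l11 between -0.26 and -0.061, Pmaip1 between 0.023 and 0.24 and Bad between -0.14 and -0.028. The same moved the ratio change between -0.044 and 0.18 for Mcl1 to Bak1, between -0.061 and 0.28 for Bcl2 to Bcl2l11, between -0.17 and 0.055 for Bcl2l1 to Bad, between -0.061 and 0.098 for Bcl2 to Bid, between -0.26 and -0.054 for Mcl1 to Pmaip1 and between -0.17 and -0.014 for Bcl2 to Bbc3. Bak1 and Pmaip1 kept their sign in every setting that tested them.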
